A study of Mus musculus with 9 samples.

Results

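The mTOR pathway genes described here are 10 genes of the mTOR complexes and their regulators: Mtor, Rptor, Rictor, Deptor, Ddit4, Sesn1, Sesn2, Eif4ebp1, Eif4ebp2 and Tsc1. They were found by exact symbol among the 24356 genes listed for each library, all 10 were above 0 in every library, and all 10 are among the 14675 genes tested. RNA from brown adipose tissue was sequenced in 4 libraries labelled GHRH-KO (KO), from 2 female and 2 male mice labelled as knockouts of growth hormone-releasing hormone, and in 5 labelled wild-type littermates (WT), from 3 females and 2 males. The mice had a mixed C57BL6 and 129SV background and ate the same chow without restriction. Age and litter are not given in the sources used here, and each library carries its own number in its title. P-values set a difference against the spread between these animals. The question was whether transcripts of this pathway differ between KO and WT, since the pathway lies downstream of growth hormone and IGF1 signalling.

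mTOR is a protein kinase that works in a pair of complexes. The complex with Raptor (mTORC1) answers to amino acids, energy and insulin-like signals and drives protein and lipid synthesis, while the complex with Rictor (mTORC2) acts on Akt and related kinases. In brown adipose tissue, both are known for their part in lipid storage, glucose uptake and the response to cold. mTOR activity is carried by phosphorylation, and what was measured here is transcript abundance, in FPKM (fragments scaled to transcript length and to library size).

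No member passed the test for genotype: 0 of 10 had a limma adjusted p (Benjamini-Hochberg over all tested genes) under 0.05, against 3.6% of all tested genes. At an unadjusted limma p under 0.05 there were 2 of 10, Ddit4 and Eif4ebp1, against 20.2% of all tested genes. With the sexes averaged, 5 members had a higher estimate in KO and 5 a lower one, and their median log2 fold change was 0.01, against -0.07 over all tested genes. The median size of the difference, sign ignored, was 0.16 for the members and 0.19 for all tested genes on the log2 scale. In none of the 10 were the KO and WT libraries free of overlap, a separation seen in 9.07% of tested genes.

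The promoters of the members with the furthest estimates below WT, Ddit4 and Sesn2, are shown so that the sites of stress-responsive factors can be read beside the values. Both genes are known to be switched on by stress. The stretches run 5′ to 3′ on the minus strand of mouse build GRCm38, from RefSeq, and end at the base before the gene's first annotated base. The Ddit4 stretch is chr10:59951835-59952020, and its capitals mark the ACGTG core that hypoxia-inducible factors bind, which starts at position 64 counted from the first base shown. The Sesn2 stretch is chr4:132510502-132510706, and it has no capitals because it held no match.
Ddit4: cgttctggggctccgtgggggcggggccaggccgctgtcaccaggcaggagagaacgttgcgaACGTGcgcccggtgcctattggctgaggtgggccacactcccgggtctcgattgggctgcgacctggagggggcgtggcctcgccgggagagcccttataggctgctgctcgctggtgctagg
Sesn2: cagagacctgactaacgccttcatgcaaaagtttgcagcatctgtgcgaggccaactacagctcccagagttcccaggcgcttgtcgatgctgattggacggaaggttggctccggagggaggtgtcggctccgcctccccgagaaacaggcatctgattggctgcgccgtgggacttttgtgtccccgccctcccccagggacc
The share of promoters with each motif, on either strand, was taken over 32851 RefSeq windows of 300 bases, 250 before the start and 50 after it. The element that ATF4 binds, TGATGNAA, was in 3.97% of them. The hypoxia core named above was in 19.6%. The FoxO motif GTAAACA was in 3.65%, and the E-box, CACGTG, which contains the hypoxia core, in 7.15%. RefSeq promoters were found for 8 of the 10 members, all but Deptor and Eif4ebp1. Of these 8, the hypoxia core was in the windows of Ddit4, Rptor and Eif4ebp2, the FoxO motif in a window of Sesn1, and the other motifs in none. A match is a run of letters and not a measured binding site.

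The sum of FPKM per library was 380558 to 443569, and the relative depth estimated from the lowest values was 0.917 to 1.14, with WT female 1 set to 1. Ghrh itself, the gene that the KO label names as knocked out, was above 0 only in the libraries labelled KO. It was at 0.233 to 0.846 FPKM in the 4 labelled KO and at 0 in each of the 5 labelled WT. FPKM do not show from which part of the gene the fragments came. Igf1, a transcript that growth hormone is known to induce, had a lower estimate in the libraries labelled KO (log2 fold change -1.84, limma adjusted p 0.0661). Each direction below takes the labels as given, and KO and WT stand for the libraries labelled so. KO male 1 stood apart from the rest, with Spearman correlations of 0.924 to 0.934 with the other libraries, a lymphocyte marker sum of 220 FPKM against 1.75 to 3.94 in the other 8, and the highest macrophage sum, 405 FPKM. In the other 3 KO libraries the macrophage sum was 25.0 to 35.2 FPKM, beside 41.4 to 100 in WT. The fit of all 9 libraries, KO male 1 included, gave lower estimates in KO for 7 of 7 macrophage markers (1 called lower). It did so for 6 of 7 progenitor markers (2 called lower) and 7 of 7 endothelial markers (0 called). For the lymphocyte markers tested, 8 of 8 estimates were higher in KO (0 called). Skeletal muscle markers summed to 2808 to 12864 FPKM in KO and 454 to 2431 in WT. Of these, 13 of 13 estimates were higher in KO and 3 were called higher. Brown adipocyte markers, such as Ucp1, summed to 6393 to 8274 FPKM in KO and 6016 to 7834 in WT. Of their estimates, 5 were higher and 4 lower in KO (0 called). White adipocyte markers summed to 325 to 497 FPKM in KO and 519 to 883 in WT, with 0 of 9 estimates higher and 1 called lower, and Hoxc9 was at 0 in at least 1 library. Fewer cells of a type and less RNA per cell cannot be told apart in such tissue RNA, and the part of these markers in the values below was not tested.

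Levels differed far more between the members than between the genotypes. FPKM are scaled to transcript length, so the levels of different genes can be set side by side. Eif4ebp1 was the most abundant, with a median of 168 FPKM over the 9 libraries. Its mean log2 FPKM was higher than that of 97.3% of tested genes. By median it was followed by Eif4ebp2 at 32.7, Deptor at 19.5, Mtor at 11.6, Ddit4 at 10.1 and Rptor at 5.62 FPKM. Below these came Sesn2 at 5.30, Sesn1 at 4.14, Tsc1 at 2.25 and Rictor at 1.21 FPKM. The ranges of neighbours in this order did not overlap between Eif4ebp1 and Eif4ebp2, Eif4ebp2 and Deptor, Sesn1 and Tsc1, or Tsc1 and Rictor, and the other neighbours could not be ordered by their ranges. Deptor was nonetheless above Mtor in 9 of 9 libraries and Ddit4 above Rptor in 8 of 9, whereas Sesn2 was above Sesn1 in 5 of 9.

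**Figure D1:**
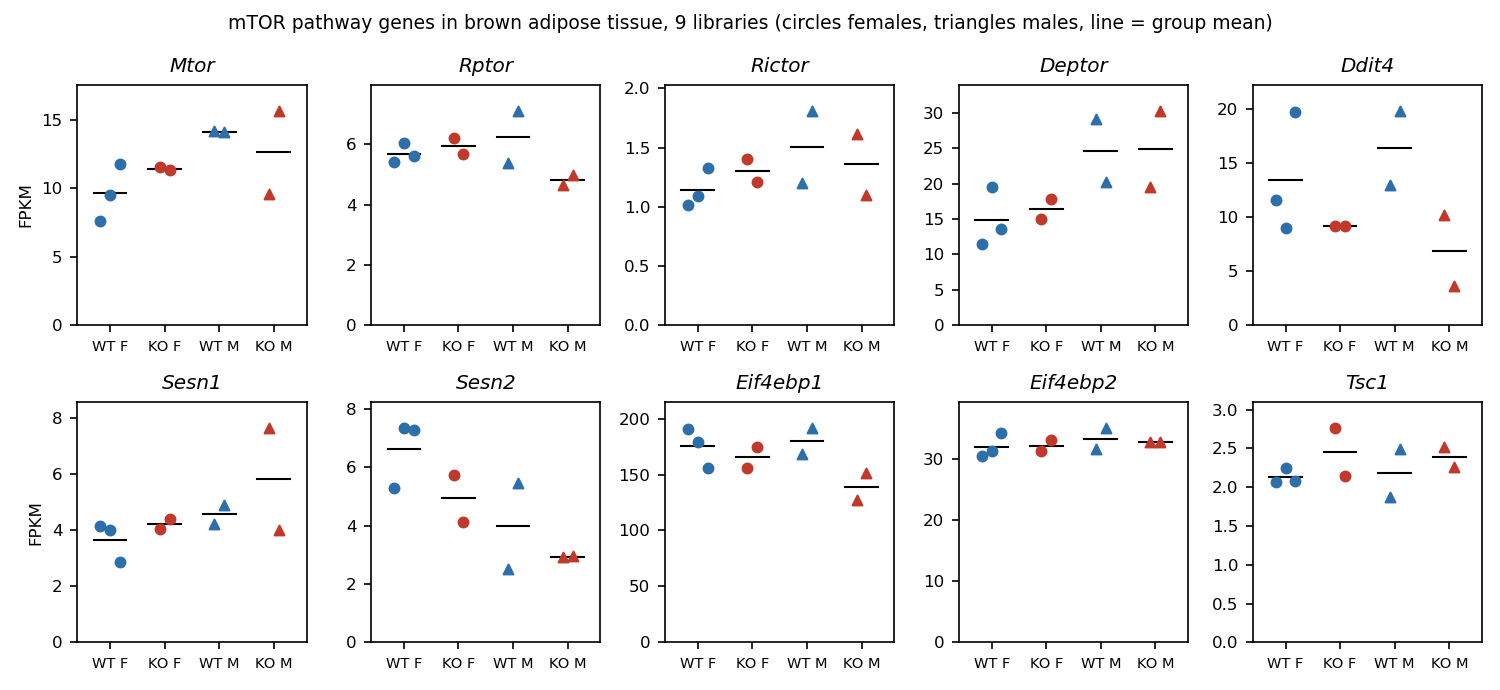
FPKM (vertical axes, from 0) of the 10 mTOR pathway genes in each of the 9 libraries, by group: WT and KO females (F, circles) and males (M, triangles), with the group mean as a line. KO (red) and WT (blue) overlap for every gene; KO male 2 has the lowest Ddit4, 3.59 FPKM, and KO male 1 the highest Sesn1, 7.62 FPKM.

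Transcripts of the kinase and its complex partners did not pass the test for genotype. Mtor, the kinase (chr4:148448611-148557683), was at 7.64, 9.55 and 11.8 FPKM in WT females, 14.2 and 14.1 in WT males, 11.6 and 11.3 in KO females and 9.62 and 15.6 in KO males. The lowest value was a WT female and the highest a KO male, and the groups overlapped over most of their range. Mtor averaged 12.0 ± 2.55 FPKM in KO and 11.5 ± 2.87 in WT (SD, n = 4 and 5). The log2 fold change was 0.03 (SE 0.17, 95% interval -0.37 to 0.43, limma adjusted p 0.956).

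Rptor encodes Raptor, the scaffold that presents substrates to mTORC1 (chr11:119602905-119899576). It was at 5.42, 6.05 and 5.62 FPKM in WT females, 5.39 and 7.10 in WT males, 6.21 and 5.67 in KO females and 4.67 and 5.00 in KO males. The KO males held the lowest values, while the KO females lay within the WT range. KO minus WT came to -0.15 on the log2 scale (SE 0.11, 95% interval -0.40 to 0.10, limma adjusted p 0.511).

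Rictor, the scaffold of mTORC2 (chr15:6708379-6800401), was the least abundant member, at 1.02, 1.09 and 1.33 FPKM in WT females, 1.20 and 1.81 in WT males, 1.40 and 1.21 in KO females and 1.62 and 1.10 in KO males. Its log2 fold change was 0.03 (SE 0.20, 95% interval -0.44 to 0.49, limma adjusted p 0.967). The ratio of Rictor to Rptor FPKM was 0.251 ± 0.0637 in KO and 0.216 ± 0.0316 in WT (SD, n = 4 and 5), with the highest value, 0.347, in KO male 1. Mlst8, a subunit of both complexes, was at 2.52 ± 0.146 FPKM in KO and 2.52 ± 0.272 in WT.

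Deptor binds and inhibits mTOR in both complexes (chr15:55112317-55259271). It was at 11.4, 19.5 and 13.6 FPKM in WT females, 29.1 and 20.2 in WT males, 14.9 and 17.8 in KO females and 19.5 and 30.2 in KO males. The high values were male and the low ones female, in either genotype. KO minus WT was 0.09 on the log2 scale (SE 0.21, 95% interval -0.40 to 0.58, limma adjusted p 0.879). The ratio of Deptor to Mtor FPKM ran from 1.16 to 2.04 and averaged 1.71 ± 0.340 in KO and 1.63 ± 0.395 in WT.

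Of the inhibitors that answer to stress, Ddit4 had the furthest estimate of all 10 members. Ddit4, also called REDD1 (chr10:59949669-59951834), is induced by hypoxia, glucocorticoids and energy stress and restrains mTORC1 through the TSC complex. It was at 11.6, 8.95 and 19.7 FPKM in WT females, 13.0 and 19.8 in WT males, 9.14 and 9.20 in KO females and 10.1 and 3.59 in KO males. Of the KO libraries, 3 lay close together between 9.14 and 10.1 FPKM and KO male 2 was far lower, while WT female 2, at 8.95 FPKM, lay below those 3.

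Ddit4 averaged 8.02 ± 2.98 FPKM in KO and 14.6 ± 4.90 in WT (SD, n = 4 and 5), a log2 fold change of -0.94 (SE 0.35, 95% interval -1.75 to -0.12). The limma adjusted p was 0.184 (unadjusted 0.0291). An exact permutation test over the 9 libraries, two-sided, gave p 0.0476, with 0.00794 the smallest p it allows. That test ignored sex and used the plain difference of means, -0.90 on the log2 scale. The difference did not pass the adjusted threshold, and it turned on the KO males. Without KO male 2 the log2 fold change was -0.56 (limma adjusted p 0.250), and without KO male 1 it was -1.31 (limma adjusted p 0.0524).

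Sesn1 and Sesn2 encode sestrins, stress-inducible proteins that bind the GATOR complex and hold mTORC1 off when amino acids, leucine above all in the case of Sesn2, are low. Sesn1 (chr10:41809935-41908424) was at 4.14, 3.99 and 2.85 FPKM in WT females, 4.22 and 4.90 in WT males, 4.04 and 4.40 in KO females and 7.62 and 4.01 in KO males. The highest value, in KO male 1, was above every other library, and the other 3 KO libraries lay inside the WT range. Sesn1 had a log2 fold change of 0.25 (SE 0.21, 95% interval -0.24 to 0.74, limma adjusted p 0.581), and 0.02 (limma adjusted p 0.947) without KO male 1.

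Sesn2 (chr4:132492032-132510501) was at 5.30, 7.33 and 7.28 FPKM in WT females, 2.52 and 5.48 in WT males, 5.74 and 4.13 in KO females and 2.91 and 2.95 in KO males. WT male 1 was the lowest of all, so the groups overlapped over the whole KO range. Sesn2 had a log2 fold change of -0.39 (SE 0.24, 95% interval -0.95 to 0.18, limma adjusted p 0.439), and it was -0.11 without WT male 2 and -0.67 without WT male 1. The ratio of Sesn1 to Sesn2 ran from 0.391 in WT female 3 to 2.62 in KO male 1.

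Tsc1, which stabilises Tsc2 in the complex that turns off Rheb and so mTORC1 (chr2:28641228-28691167), was at 2.06, 2.25 and 2.08 FPKM in WT females, 1.88 and 2.49 in WT males, 2.76 and 2.15 in KO females and 2.52 and 2.27 in KO males. The highest 2 values were KO and the lowest a WT male, with overlap between. Its log2 fold change was 0.17 (SE 0.14, 95% interval -0.16 to 0.49, limma adjusted p 0.580).

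Eif4ebp1 and Eif4ebp2 encode 4E-BP1 and 4E-BP2, mTORC1 substrates that block cap-dependent translation by binding eIF4E until they are phosphorylated. Eif4ebp1 (chr8:27260329-27276674) was at 191, 179 and 156 FPKM in WT females, 168 and 191 in WT males, 156 and 175 in KO females and 127 and 152 in KO males. The KO males were the lowest 2 of the 9 libraries, while the KO females lay level with or inside the WT females. The means were 152 ± 19.7 FPKM in KO and 177 ± 15.1 in WT (SD, n = 4 and 5). The log2 fold change was -0.23 (SE 0.09, 95% interval -0.44 to -0.01), with a limma adjusted p of 0.230 (unadjusted 0.0435) and an exact permutation p of 0.0635, two-sided.

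Eif4ebp2 (chr10:61428491-61452661) varied least of the members, at 30.4, 31.3 and 34.2 FPKM in WT females, 31.5 and 34.9 in WT males, 31.2 and 33.0 in KO females and 32.7 in each KO male. All KO libraries lay inside the WT range. Its spread within groups, a residual SD of 0.08 on the log2 scale, was lower than that of all but 5.36% of tested genes, and its log2 fold change was -0.01 (SE 0.07, 95% interval -0.16 to 0.15, limma adjusted p 0.977). This is the narrowest interval among the members, and the widest was that of Ddit4, whose residual SD of 0.63 was higher than that of 81.3% of tested genes. The ratio of Eif4ebp1 to Eif4ebp2 was 4.70 ± 0.609 in KO and 5.47 ± 0.624 in WT (SD, n = 4 and 5), lowest in KO male 1 at 3.88 and highest in WT female 1 at 6.28.

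**Figure D2:**
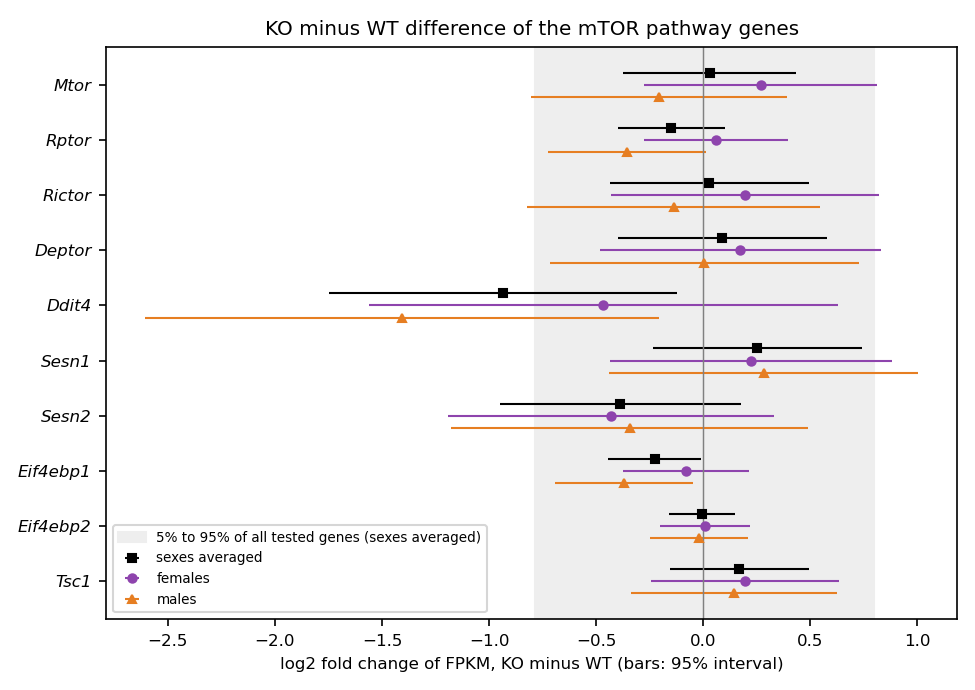
Log2 fold change of FPKM, KO minus WT, for each of the 10 genes with the sexes averaged (squares), in females (circles) and in males (triangles), with 95% intervals from limma as bars; the grey band spans the 5% to 95% quantiles of all tested genes. With the sexes averaged, the intervals of Ddit4 (-1.75 to -0.12) and Eif4ebp1 (-0.44 to -0.01) lie below 0 before adjustment and the other 8 span 0.

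Within each sex, 0 of 10 members passed the test, where 0.0204% of tested genes did in females and 0.0136% in males. In females none of the members had an unadjusted limma p under 0.05 (12.7% of tested genes) and none was free of overlap (40.4% of tested genes). The female estimates were -0.47 for Ddit4 (SE 0.47, limma adjusted p 0.737), -0.43 for Sesn2 (SE 0.33, limma adjusted p 0.629) and 0.27 for Mtor (SE 0.23, limma adjusted p 0.689). Each moved when 1 library was left out, with -0.15 for Ddit4 without WT female 3 and -0.72 without WT female 2, -0.19 for Sesn2 without KO female 2 and -0.67 without KO female 1, and 0.11 for Mtor without WT female 1 and 0.42 without WT female 3. In males 2 of 10 had an unadjusted limma p under 0.05 (16.6% of tested genes). These were Ddit4, with a log2 fold change of -1.41 (SE 0.52, limma adjusted p 0.227), and Eif4ebp1, with -0.37 (SE 0.14, limma adjusted p 0.233).

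Without KO male 1 the male estimate for Eif4ebp1 was -0.24, and without KO male 2 it was -0.50. Rptor followed in males at -0.36 (SE 0.16, limma adjusted p 0.317), and at -0.56 without WT male 1 and -0.16 without WT male 2. In Ddit4, Eif4ebp1 and Rptor both KO males lay below both WT males, a count of 3 of 10 where 39.4% of tested genes were free of overlap in males. The estimate in males for Ddit4 was -0.66 without KO male 2 and -2.16 without KO male 1. The linear model of the study's methods, with female as the reference sex, gave 0 of 10 members a p under 0.01 for its genotype term (3.43% of tested genes). The lowest p of that model was 0.302, for Tsc1. With this coding the term is the KO minus WT difference in females alone. Its estimates are therefore the female ones again and say nothing about the males.

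The difference between the sexes in the genotype effect was tested by the interaction term. It passed in 0 of 10 members (0% of tested genes) at a limma adjusted p under 0.05, and in 0 of 10 at an unadjusted p under 0.05 (7.01% of tested genes). The lowest p belonged to Rptor, at -0.42 on the log2 scale, male effect minus female effect (SE 0.21, unadjusted 0.0894, limma adjusted p 0.718). For Ddit4 it was -0.94 (SE 0.70, limma adjusted p 0.748), so that the larger estimate in males was not distinguishable from that in females, with an interval of -2.57 to 0.68.

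Deptor and Sesn2 differed most by sex, in opposite directions. No member passed the adjusted threshold for sex (0 of 10, against 0.0136% of tested genes), and these 2 had an unadjusted limma p under 0.05 (10.4% of tested genes). Deptor averaged 24.8 ± 5.69 FPKM in males and 15.5 ± 3.25 in females (mean ± SD, n = 4 and 5). Male minus female was 0.66 on the log2 scale (SE 0.21, 95% interval 0.17 to 1.15, limma adjusted p 0.348). Its lowest male and highest female library both read 19.5 FPKM, the male a trace higher, which made it the 1 member of 10 whose sexes did not overlap (2.75% of tested genes).

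Sesn2 averaged 3.46 ± 1.36 FPKM in males and 5.96 ± 1.37 in females, a log2 fold change of -0.78 (SE 0.24, 95% interval -1.34 to -0.21, limma adjusted p 0.346). Of the males, 3 were below every female and WT male 2, at 5.48 FPKM, lay among them. The difference was -0.50 without WT male 1 and -1.06 without WT male 2. Mtor was at 13.4 ± 2.61 FPKM in males and 10.4 ± 1.77 in females (log2 fold change 0.34, SE 0.17, limma adjusted p 0.547), and its difference was 0.16 without KO male 2 and 0.51 without KO male 1. The other 7 had unadjusted p-values above those of these 3.

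Across the 9 libraries, the members with the most similar pattern of log2 FPKM were Deptor and Mtor (Pearson r 0.739) and Rptor and Eif4ebp1 (r 0.685), and Deptor and Sesn2 ran opposite (r -0.696). For the pair with an unadjusted p under 0.05, the 3 most similar of all tested genes were Impa1 (r 0.977), Ewsr1 (0.960) and Caskin1 (0.956) for Ddit4, and Acsm5 (0.963), Smoc1 (0.962) and Cd1d1 (0.956) for Eif4ebp1. These are the highest of 14675 correlations over 9 points that share their libraries, and are given as a description.

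Beyond the 10 members, 73 of 74 further genes of mTOR signalling were tested, from upstream receptors to the S6 kinase and 4E-BP arms. The lists of Ulk1 and Tfeb and of Lpin1 and Srebf1, given further below, were not part of these 73. With the sexes averaged, 1 was called higher in KO and 0 lower, where 3.6% of all tested genes were called, and 16 had an unadjusted limma p under 0.05, where 20.2% of all tested genes did. Their median log2 fold change was -0.04, beside -0.07 over all tested genes. The gene called was Rragd, a Rag GTPase that brings mTORC1 to the lysosome when amino acids are present and a known target of TFEB and related factors.

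Rragd was at 2.22, 2.01 and 2.15 FPKM in WT females, 2.05 and 1.10 in WT males, 5.78 and 3.40 in KO females and 7.29 and 4.71 in KO males. The lowest KO library was above the highest WT library. Rragd rose from 1.90 ± 0.459 FPKM in WT to 5.29 ± 1.65 in KO (mean ± SD, n = 5 and 4), a log2 fold change of 1.51 (SE 0.25, limma adjusted p 0.0347). The call was lost in 9 of 18 alternatives, with a limma adjusted p of up to 0.134, and the direction in 0. Those 9 include leaving out any of the 5 females or WT male 2. KO male 1, the library with the highest muscle marker sum (12864 FPKM), had the highest Rragd, and WT male 2, with the lowest sum (454 FPKM), had the lowest. The part of muscle RNA in Rragd was not tested.

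Of the other 12 Rag and Ragulator genes none was called. Among stress and amino acid inhibitors, Ddit4l, the paralog of Ddit4 known from muscle, ran opposite to Ddit4. It was at 2.25 to 9.90 FPKM in KO and 0.261 to 2.16 in WT, with its highest value in KO male 1 and its lowest in WT male 2, as for Rragd. Its log2 fold change was 2.14 (SE 0.61, limma adjusted p 0.0964). Grb10, an adaptor that mTORC1 stabilises and that restrains the insulin receptor, was at 3.22 ± 0.488 FPKM in KO and 4.46 ± 0.776 in WT (limma adjusted p 0.165).

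In the S6 kinase arm, Rps6kb1, which encodes the main S6 kinase, was at 5.47 to 5.66 FPKM in KO and 6.00 to 8.07 in WT, with no overlap. The log2 fold change was -0.31 (SE 0.07, limma adjusted p 0.0615), short of the threshold, and -0.49 in males (limma adjusted p 0.0944). Over the alternatives its limma adjusted p ran from 0.0488, when only genes with a mean of at least 1 FPKM were tested, to 0.319 with median centring. Rps6kb2 was at -0.18 (limma adjusted p 0.531). In the 4E-BP arm, Eif4a1, the helicase of the cap-binding complex, was at 131 ± 11.1 FPKM in KO and 154 ± 13.8 in WT (limma adjusted p 0.154).

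The insulin and IGF1 arm upstream of Akt had 0 of 12 genes called (3.6% of all tested genes), 5 with an unadjusted limma p under 0.05 (20.2% of all tested genes) and 9 with a lower estimate in KO. Its median log2 fold change was -0.18, beside -0.07 over all tested genes. Pik3r1, the regulatory subunit of PI3-kinase, was at 6.42 ± 1.78 FPKM in KO and 13.2 ± 6.03 in WT (log2 fold change -1.07, SE 0.23, limma adjusted p 0.0505). Irs2, an insulin receptor substrate, was at 3.69 ± 2.57 FPKM in KO and 13.4 ± 6.75 in WT (log2 fold change -1.83, SE 0.43, limma adjusted p 0.0609). Igf1 was at 1.33 ± 0.784 FPKM in KO and 4.80 ± 2.66 in WT (log2 fold change -1.84, limma adjusted p 0.0661), and Ghr, the growth hormone receptor, at 46.8 ± 5.08 and 94.2 ± 36.6 (log2 fold change -0.98, limma adjusted p 0.0660). Igf2 rose in KO (log2 fold change 1.67, SE 0.12, limma adjusted p 0.00356), with 10.7 to 24.9 FPKM in KO and 4.42 to 6.10 in WT.

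Elsewhere in the pathway no gene was called. Among complex subunits, Prr5l of mTORC2 was at -0.62 (limma adjusted p 0.237). Of the TSC and Rheb genes, Rheb, the GTPase that activates mTORC1, was at -0.14 (limma adjusted p 0.250) and Tsc2 at -0.12 (0.374). Of the GATOR and KICSTOR genes, Seh1l was at -0.19 (limma adjusted p 0.147) and Kptn at 0.18 (0.377).

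Among AMPK subunits, Prkaa2, a catalytic subunit abundant in muscle, was at 0.45 (limma adjusted p 0.0601) and Prkab2 at 0.77 (0.157). Ulk1, the autophagy kinase, was at -0.17 (limma adjusted p 0.318) and Tfeb at 0.25 (0.487). Lpin1, a phosphatidate phosphatase that mTORC1 phosphorylates, was at -0.26 (limma adjusted p 0.0940) and Srebf1 at -0.44 (0.215).

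The factors known to induce Ddit4 and the sestrins were followed through lists of their other targets. Of 15 ATF4 targets, 1 was called higher and 0 lower, and of 11 FoxO targets, 1 higher and 0 lower, where 3.6% of all tested genes were called. No gene was called among 9 p53, 9 glucocorticoid or 9 hypoxia targets. The medians were 0.04, -0.05, 0.09, -0.49 and -0.03 on the log2 scale for ATF4, FoxO, p53, glucocorticoid and hypoxia targets. An unadjusted limma p under 0.05 was seen in 4 ATF4, 6 FoxO, 2 p53, 2 glucocorticoid and 2 hypoxia targets (20.2% of all tested genes). Estimates were higher in 8 and lower in 7 ATF4 targets, 5 and 6 FoxO targets, and 5 and 4 p53 targets. Of the 9 glucocorticoid targets, 8 had a lower estimate with the sexes averaged, 2 in females (median 0.13) and 9 in males (median -0.54). Over all tested genes the median was -0.07 in females and -0.08 in males. The lowest p-values in that list were those of Sgk1 at -0.60 (limma adjusted p 0.157) and Per1 at -0.49 (0.231). Of the 9 hypoxia targets, 4 had a higher estimate and 5 a lower one, and the lowest p-values were those of Egln3 at 1.21 (limma adjusted p 0.0585) and Ankrd37 at 1.70 (0.0844).

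Trib3, a pseudokinase that binds Akt and a target of ATF4, rose from 2.03 ± 0.486 FPKM in WT to 4.39 ± 0.582 in KO (n = 5 and 4), a log2 fold change of 1.10 (SE 0.18, limma adjusted p 0.0347). Each KO library, from 3.90 to 5.22 FPKM, was above each WT library, from 1.40 to 2.64. Trib3 lies on the chromosome of the targeted gene, at chr2:152337422-152344032 with Ghrh at chr2:157329497-157347506, and the part of linked alleles from the background strains was not tested.

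Fbxo32, a muscle ubiquitin ligase and FoxO target also known as atrogin-1, rose from 2.29 ± 0.502 FPKM in WT to 5.26 ± 1.32 in KO (n = 5 and 4), a log2 fold change of 1.15 (SE 0.21, limma adjusted p 0.0370). Its estimate was higher in KO, as were those of the muscle markers given above. Fbxo32 was at 3.31 to 6.19 FPKM in KO and 1.57 to 2.92 in WT. Like the muscle sum, it was higher in each KO library than in each WT library. Fbxo32 was highest in KO male 2 and lowest in WT female 3. The muscle sum was highest in KO male 1 and lowest in WT male 2. The part of muscle RNA in Fbxo32 was not tested. The call for Fbxo32 was lost in 10 of 18 alternatives and that for Trib3 in 9 of 18, without any of the 5 females or WT male 2 in each case and also without KO male 1 for Fbxo32. Of p53 targets, Phlda3 was at -0.36 (limma adjusted p 0.189) and Cdkn1a, the cell cycle inhibitor p21, at -0.42 (0.205).

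**Figure D3:**
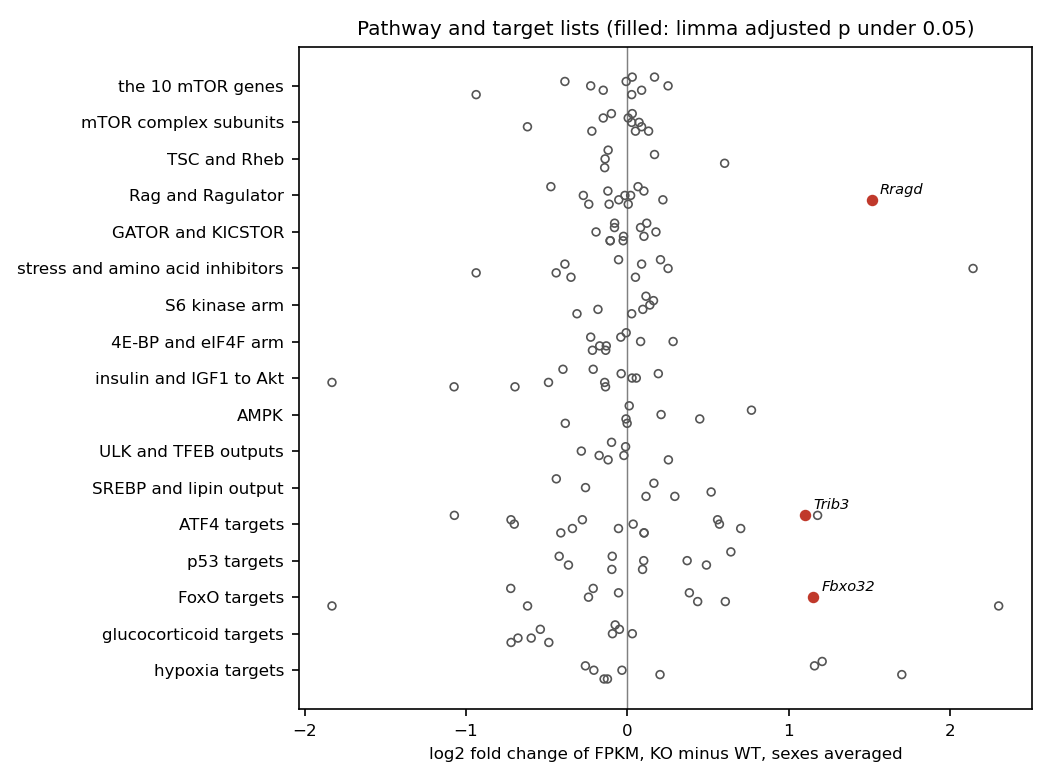
Log2 fold change of FPKM, KO minus WT with the sexes averaged, for every tested gene of the mTOR pathway lists and of the target lists of factors that induce its inhibitors (1 row per list, with genes of several lists shown in each). Filled points have a limma adjusted p under 0.05 and are Rragd (1.51), Trib3 (1.10) and Fbxo32 (1.15); the 10 mTOR pathway genes in the top row are all open.

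How far each member's difference rests on 1 library was seen by leaving out each in turn. The log2 fold change of Ddit4 then ran from -1.31 to -0.56, that of Eif4ebp1 from -0.29 to -0.16, that of Sesn2 from -0.67 to -0.11, that of Sesn1 from 0.02 to 0.48, that of Rptor from -0.25 to -0.05 and that of Tsc1 from 0.07 to 0.27. These 6 kept their sign throughout, and the ends for Rptor and Tsc1 were the fits without WT male 1 and without WT male 2, in that order. Mtor (-0.14 to 0.21), Rictor (-0.12 to 0.18), Deptor (-0.07 to 0.25) and Eif4ebp2 (-0.04 to 0.03) took both signs. No member was called without any 1 of the 9 libraries.

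**Figure D4:**
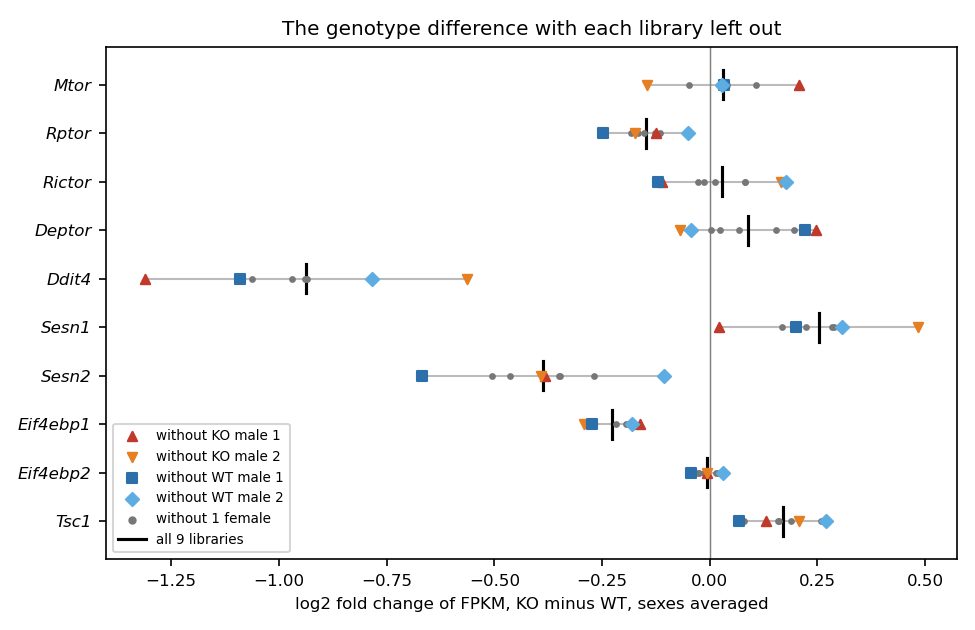
Log2 fold change of FPKM, KO minus WT with the sexes averaged, for each of the 10 genes with all 9 libraries (black line) and with each library left out (points; coloured for the 4 males, grey for the 5 females). For Ddit4 the KO males set both ends, -1.31 without KO male 1 and -0.56 without KO male 2; Sesn1 falls to 0.02 without KO male 1.

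Reads shared with other genes could touch few of these values. Of the 50-base stretches of each member's transcripts, 3.78% for Deptor, 2.87% for Eif4ebp1 and 0.355% for Rptor were also found in another gene, and 0 for the other 7. Deptor shares 303 exon bases with Gm9920 and Rptor 84 with Rptoros, both on the opposite strand, and these were at no more than 0.160 and 0.0692 FPKM. Counting by strand is not stated, so such reads cannot be told apart.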

How the data were processed

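Total RNA of brown adipose tissue was selected for poly(A), made into TruSeq libraries and sequenced as read pairs. Per the labels and methods, the authors used bcl2fastq 1.8.4, TopHat 2.0.11 with Bowtie and build mm10 (GRCm38), and deposited 1 table of FPKM per library. Counts are not used here, so depth is known only as a relative value. The methods remove genes at 0 in any library, log-transform and fit genotype, sex and their interaction.

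The members and gene lists were chosen with earlier results of these data known. Genes at 0 FPKM in any library were removed, leaving 14675. The log2 FPKM, with no pseudocount or further scaling, were fitted in limma 3.58.1 (R 4.3.3) with a mean per group of genotype and sex and a mean-variance trend, and p-values were adjusted by Benjamini-Hochberg at 0.05. Fold changes are KO minus WT, the sexes weighted equally, while means ± SD are over libraries. The fit was tested on simulated data. The linear model of the methods used a p under 0.01, and exact permutation tests used all 126 assignments of the 9 libraries, without regard to sex. Named genes are all members, and from each other list every gene called or else the 2 with the lowest p, with Igf1, Igf2, Ghr and Ghrh. Mlst8 was added after its values were seen. Castor1 and Castor2 were matched by older symbols, and Bmt2 was not found by its symbol. Positions are from GENCODE M21 on GRCm38 and promoters from RefSeq on GRCm38.p6. Alternatives changed the pseudocount, the filter, the scaling, the variance model, the terms and the libraries. Python 3.11.15, pandas 2.3.3 and matplotlib 3.10.9 were also used.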

Additional observations from a re-analysis of the deposited data

Results flagged for a closer look

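In 4 to 10 samples, a value was marked when its gap to the nearest other sample, over the whole range, was above Dixon's 95% critical value, 0.829 for 4 libraries. Of 20 member-by-genotype groups, 2 were marked, and chance marks about 1 in 20 groups. Ddit4 in KO male 2 was at 3.59 FPKM, with the other 3 KO libraries at 9.14 to 10.1 FPKM (gap over range 0.847). Sesn1 in KO male 1 was at 7.62 FPKM, with the other 3 at 4.01 to 4.40 FPKM (gap over range 0.893). KO male 1 is also the library with the highest lymphocyte and muscle marker sums, 220 and 12864 FPKM, and their part in its Sesn1 level was not tested.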

How the results depend on the processing

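No member was called in any comparison under any alternative run. The 700 member values followed leave out the interaction, and those from the permutation test were compared by sign only. Of the 700, 659 kept their direction and side of the threshold and 41 changed sign. Those outside the leave-one-out fits were close to 0 throughout. Median centring gave Eif4ebp2 0.051 for genotype with the sexes averaged and -0.014 for sex, Tsc1 -0.055 for sex and Eif4ebp1 0.028 for genotype in females. Quantile normalization gave Eif4ebp2 0.046 averaged and 0.061 in males and Tsc1 -0.079 for sex, against medians over all tested genes of -0.02 under centring, -0.03 under quantile normalization and -0.07 otherwise for genotype averaged.

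Leaving out 1 library at a time, the members that changed sign ran, for genotype averaged, from -0.14 to 0.21 (Mtor), -0.12 to 0.18 (Rictor), -0.069 to 0.25 (Deptor) and -0.044 to 0.030 (Eif4ebp2). For females they ran from -0.0059 to 0.13 (Rptor), -0.16 to 0.0010 (Eif4ebp1) and -0.034 to 0.057 (Eif4ebp2). For males they ran from -0.56 to 0.14 (Mtor), -0.44 to 0.16 (Rictor), -0.31 to 0.32 (Deptor), -0.18 to 0.74 (Sesn1), -0.90 to 0.22 (Sesn2), -0.095 to 0.053 (Eif4ebp2) and -0.059 to 0.35 (Tsc1), and for sex from -0.51 to 0.24 (Ddit4), -0.19 to 0.011 (Rptor) and -0.10 to 0.10 (Tsc1). A group left with 1 library was taken to vary like the others.

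Counts over all tested genes moved more. For genotype averaged, 529 genes became 170 with no filter and a pseudocount of 0.1 together, 222 with median centring, 34 without the trend and 19 with the ordinary linear model, and 8 (without KO female 1) to 1105 (without KO male 2) when a library was left out. In females, 3 became 11 with a mean FPKM of at least 1, 0 without the trend, 1 with the ordinary model and 0 to 19 with a library left out. In males, 2 became 0 with a pseudocount of 1, 1 with that pair of changes, 19 with a mean FPKM of at least 1, 1 under quantile normalization, 0 without the trend, 0 with the ordinary model and 0 to 1293 with a library left out. The interaction gave 0 to 721 genes with a library left out (721 without KO male 2). For sex, 2 became 10 with that pair, 1 with median centring, 8 with the ordinary model and 1 to 803 with a library left out. The linear model of the methods gave 777 genes in place of 503 with male as the reference sex, and 225 to 553 with a library left out. The cause was not tested.

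Rragd, Trib3 and Fbxo32 kept their direction but passed the threshold neither with no filter and a pseudocount of 0.1 together (limma adjusted p 0.0512, 0.0507 and 0.0568) nor without the trend (0.0638, 0.0631 and 0.0703) nor with the ordinary linear model (adjusted p 0.102, 0.0962 and 0.107). Pik3r1, not called in the report, was called in 5 of 18 alternatives, Egln3 in 2, and Rps6kb1, Irs2, Ddit4l, Prkab2, Igf1 and Ghr in 1 each. No paired analysis was possible, because KO and WT libraries come from different animals and the litter of each is not given in the sources used here.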
